A study of Mus musculus with 10 samples.

Results

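The promoters of 9 transcriptional regulators of myeloid cells were followed in promoter capture Hi-C data, which score how often a captured promoter fragment (the bait) was ligated to another HindIII fragment (the other end). The regulators were Cebpa, Cebpb, Cebpd, Cebpe, Spi1, Irf8, Irf2bp2, Mzf1 and Klf4, and a listed pair was taken when its bait held the start or the end of 1 of these genes in mm10. This gave 8 baits for 7 of the 9 genes and 164 pairs of the 100153 in either list, with 144 in the list of haematopoietic stem and progenitor cells (HSPCs), 97 in the neutrophil list and 77 in both. Cebpd and Irf8 had no listed bait and drop out as promoters. All cells came from C57BL/6 bone marrow, with 2 biological replicates in each of 5 groups. Npm1c HSPCs carried Npm1flox-cA/+;Mx1-Cre+, Flt3-ITD HSPCs carried Flt3ITD/+, and DM HSPCs carried both (Npm1flox-cA/+;Flt3ITD/+;Mx1-Cre+). The WT neutrophils and WT HSPCs carried none of these alleles per their labels, so the Cre is present in Npm1c and DM mice and not in Flt3-ITD or WT mice. Mx1-Cre is driven by an interferon-inducible promoter that is active well beyond blood cells, and neither the induction, the age of the mice nor the pooling of animals is given in the sources used here. The HSPCs were a lineage-negative fraction, which mixes stem cells with committed progenitors, and contacts measure no expression, so neither cell type could be checked against its marker genes.

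C/EBPalpha (Cebpa) and PU.1 (Spi1) act together to commit progenitors to the granulocyte and monocyte fates. C/EBPepsilon (Cebpe) then drives the late steps of granulocyte maturation, while C/EBPbeta (Cebpb) sustains granulocyte production under stress, and Irf8 and Klf4 favour monocytes. Promoters of such genes are often regulated by distant enhancers, which promoter capture Hi-C can detect as fragments that are ligated to the promoter more often than their distance predicts.

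The promoters of Klf4, Cebpa and Cebpg are shown because the Klf4 and Cebpa fragments had 12 of the 19 pairs at which both DM libraries lay above all other HSPC libraries, and because the Cebpa fragment met the Cebpg promoter fragment. They are RefSeq sequences (GRCm38.p6) of 300 bases around the start site at chr4:55532426-55532725 (minus strand), chr7:35119043-35119342 (plus strand) and chr7:35056517-35056816 (minus strand). Capitals mark matches on either strand to the GC box GGGCGG or to the CACCC box CCCCACCC, the letters bound by Sp and Kruppel-like factors.
Klf4: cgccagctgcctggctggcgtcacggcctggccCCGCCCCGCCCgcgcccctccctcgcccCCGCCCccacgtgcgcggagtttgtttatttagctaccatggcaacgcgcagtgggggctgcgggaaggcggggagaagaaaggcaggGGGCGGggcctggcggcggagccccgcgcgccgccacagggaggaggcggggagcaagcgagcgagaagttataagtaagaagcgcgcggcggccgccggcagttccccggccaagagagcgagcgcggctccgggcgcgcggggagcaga
Cebpa: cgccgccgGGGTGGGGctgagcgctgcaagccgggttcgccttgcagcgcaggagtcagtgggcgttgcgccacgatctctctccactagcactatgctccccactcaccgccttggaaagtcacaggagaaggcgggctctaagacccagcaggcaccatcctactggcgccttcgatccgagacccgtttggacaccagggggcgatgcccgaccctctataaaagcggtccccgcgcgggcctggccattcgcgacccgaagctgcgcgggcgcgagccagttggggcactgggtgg
Cebpg: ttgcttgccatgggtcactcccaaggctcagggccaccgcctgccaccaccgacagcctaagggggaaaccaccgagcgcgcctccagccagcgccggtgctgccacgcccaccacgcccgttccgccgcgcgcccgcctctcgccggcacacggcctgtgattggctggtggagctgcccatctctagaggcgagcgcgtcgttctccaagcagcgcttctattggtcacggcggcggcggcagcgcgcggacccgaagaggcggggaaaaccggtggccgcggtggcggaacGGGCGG
The Klf4 window held 4 GC boxes, some of them overlapping, and the Cebpg window held 1. The Cebpa window held no GC box and 1 CACCC box. Of 32851 promoter windows of the same length, 35.7% held a GC box and 9.99% a CACCC box. None of the 3 windows matched the C/EBP letters TTGCNNAA, the PU.1 letters GAGGAA, the STAT letters TTCNNNGAA or the HindIII site AAGCTT. GC content was 74.3% for Klf4, 67.3% for Cebpa and 71.7% for Cebpg, against a median of 52.7% over all windows.

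The 88624 pairs of the HSPC list have a score in every HSPC library, and some HSPC group had both of its replicates at 5 or above for each of them. For the 25622 pairs of the neutrophil list both neutrophil replicates were at 5 or above, so a pair outside that list has no neutrophil value. A pair that entered the list through a group therefore had to be high in that group, and counts over the pairs below are read beside the same counts over all pairs. The files hold no read counts, so library depth is unknown, and the precision rests on how far the 2 replicates of a group differ.

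Of the 144 pairs in the HSPC list, 66 (45.8%) reached 5 in both Npm1c replicates, against a background of 41.8% over all listed pairs. In Flt3-ITD HSPCs 91 (63.2%) did so, against a background of 51.2%, in DM HSPCs 97 (67.4%), against 48.8%, and in WT HSPCs 58 (40.3%), against 34.9%. The Klf4, Cebpa and Cebpe fragments had most of their pairs through DM HSPCs, and the Cebpb fragment had most of its pairs through Flt3-ITD HSPCs. The Irf2bp2 fragment had more pairs in every mutant and in neutrophils than in WT HSPCs, and the Mzf1 fragment spread its pairs over all 5 groups. Both replicates of a group lay above all 6 other HSPC libraries at 4 pairs for Npm1c (2.78%, against a background of 6.97%), 14 for Flt3-ITD (9.72%, against 8.19%), 19 for DM (13.2%, against 13.2%) and 5 for WT HSPCs (3.47%, against 6.01%). The DM share equals its background and the Flt3-ITD share lies near it, while those of Npm1c and WT HSPCs lie below theirs. Of the 19 DM pairs 12 belonged to Klf4 and Cebpa. Both replicates lay above both WT replicates at 43 pairs in Npm1c (29.9%, against 26.3%), 65 in Flt3-ITD (45.1%, against 34.0%) and 66 in DM HSPCs (45.8%, against 32.6%).

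**Figure D1:**
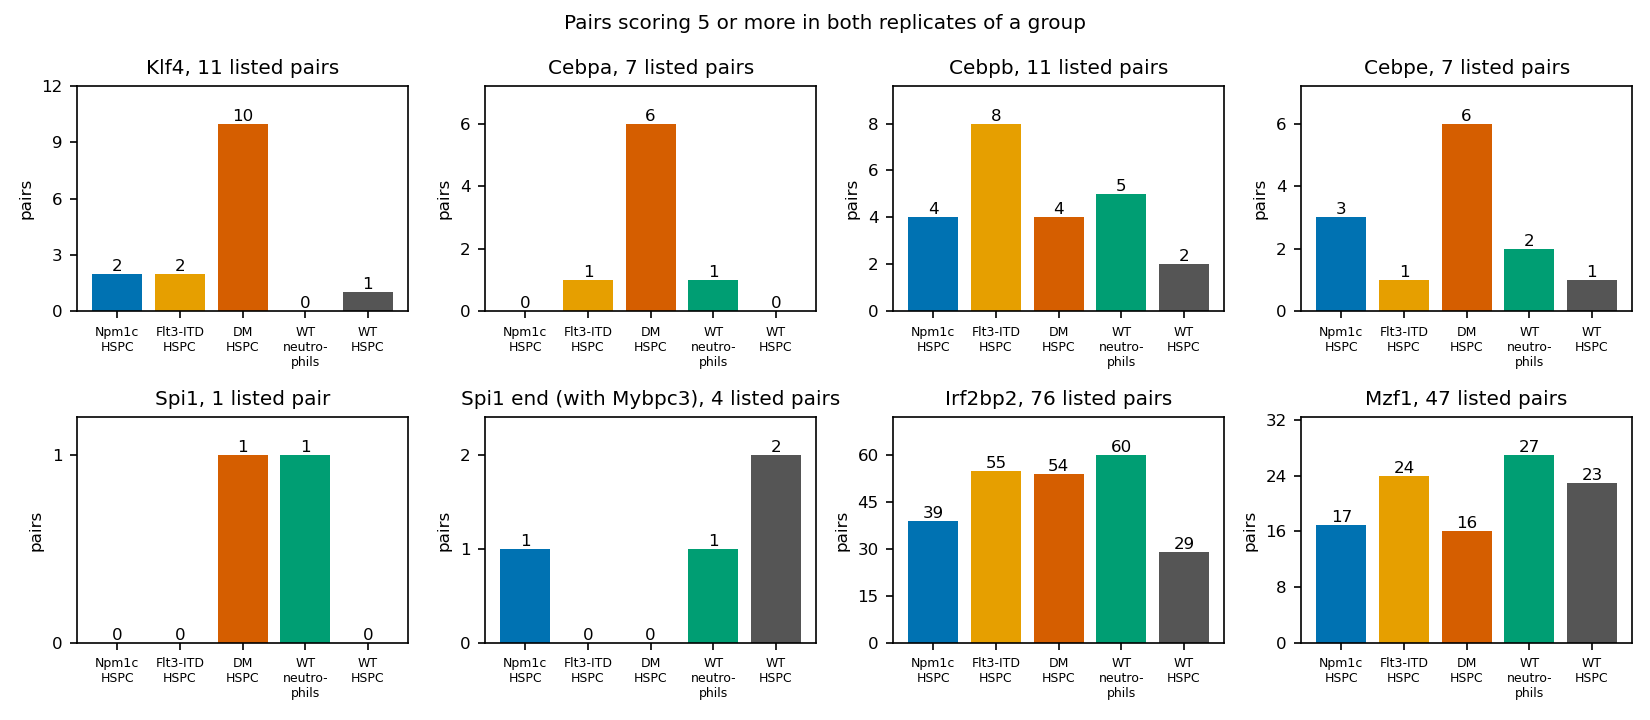
Number of listed pairs (vertical axis, scale differs between panels) that scored 5 or more in both replicates of a group, for each of the 8 promoter fragments. DM HSPCs hold 10 of the 11 Klf4 pairs and 6 of the 7 Cebpa pairs, Flt3-ITD HSPCs hold 8 of the 11 Cebpb pairs, and neutrophils hold 60 of the 76 Irf2bp2 pairs.

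Klf4, a zinc-finger factor of monocytes and of epithelia, had a stretch of partners that entered the list through DM HSPCs only. Its bait (chr4:55531813-55535766) had 11 pairs in the HSPC list and none in the neutrophil list. All of them ran to higher coordinates, which is upstream of this minus-strand gene, and they fell in 2 stretches with no annotated gene. The nearer stretch (chr4:55798073-55821139) held 7 fragments 265 to 287 kb away. Averaged over these 7 fragments, the score was 2.19 and 1.21 in the Npm1c replicates, 4.37 and 3.13 in the Flt3-ITD replicates, and 9.31 and 9.70 in the DM replicates, against 2.03 and 1.27 in the WT replicates. Single scores there ran from 6.37 to 15.0 in DM HSPCs, while they ran from 0.194 to 4.47 in Npm1c, from 2.58 to 5.93 in Flt3-ITD and from 0.32 to 4.30 in WT HSPCs. At each of the 7 fragments both DM replicates lay above all 6 other libraries, beside 13.2% of all listed pairs. Each fragment had entered the list through DM HSPCs only. High DM scores were thus fixed by the selection, and nothing is read from this order.

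Within the nearer Klf4 stretch, 3 pairs passed limma's test across all 88421 pairs fitted. The fragment at chr4:55819799-55821139 scored 10.1 and 8.44 in DM HSPCs, against 1.09 and 1.79 in WT HSPCs. Both DM values lay far above both WT values, and they differed by 2.08 on the log2 scale (SE 0.32, adjusted p = 0.0422, limma). The fragment at chr4:55815640-55818268 scored 9.69 and 9.51 in DM HSPCs, against 1.34 and 0.382 in Npm1c HSPCs. Here too the groups did not overlap (2.56, SE 0.39, adjusted p = 0.0403, limma). At chr4:55799316-55803118 the scores were 6.37 and 9.44 in DM HSPCs, against 0.664 and 0.74 in Npm1c HSPCs, with a difference of 2.37 (SE 0.35, adjusted p = 0.0336, limma). These were the only pairs of the 144 that passed in any comparison, namely 1 in DM against WT HSPCs, where 0.576% of all pairs passed, and 2 in DM against Npm1c HSPCs, where 0.561% did. All 3 had entered the list through DM HSPCs alone, so the test uses the values that selected them and the p-values support nothing beyond the scores themselves. None of the 3 could be tested on pairs brought in by other groups, and each call was lost with any 1 of the compared libraries left out and when only pairs within 1 Mb were fitted (adjusted p = 0.0507, 0.057 and 0.0526 in the order given, limma).

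The farther Klf4 stretch (chr4:56214361-56231332) held 4 fragments 683 to 695 kb away, and groups other than DM also reached 5 there. The fragment at chr4:56220113-56223407 scored 6.20 and 5.82 in Npm1c, 14.0 and 6.47 in Flt3-ITD and 9.24 and 6.87 in DM HSPCs, against 2.01 and 2.78 in WT HSPCs. All 6 mutant libraries lay above both WT libraries there. Each mutant had brought this pair in and WT HSPCs had not, so the selection favours this order and nothing is read from it. The most distant fragment (chr4:56225946-56231332) ran the other way for DM, with 10.7 and 7.27 in Npm1c, 2.52 and 4.81 in Flt3-ITD and 4.90 and 3.72 in DM HSPCs, against 7.08 and 5.72 in WT HSPCs. Both DM and both Flt3-ITD libraries lay below both WT libraries at this fragment. It had entered the list through Npm1c and WT HSPCs, so the selection contributes to this order too.

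**Figure D2:**
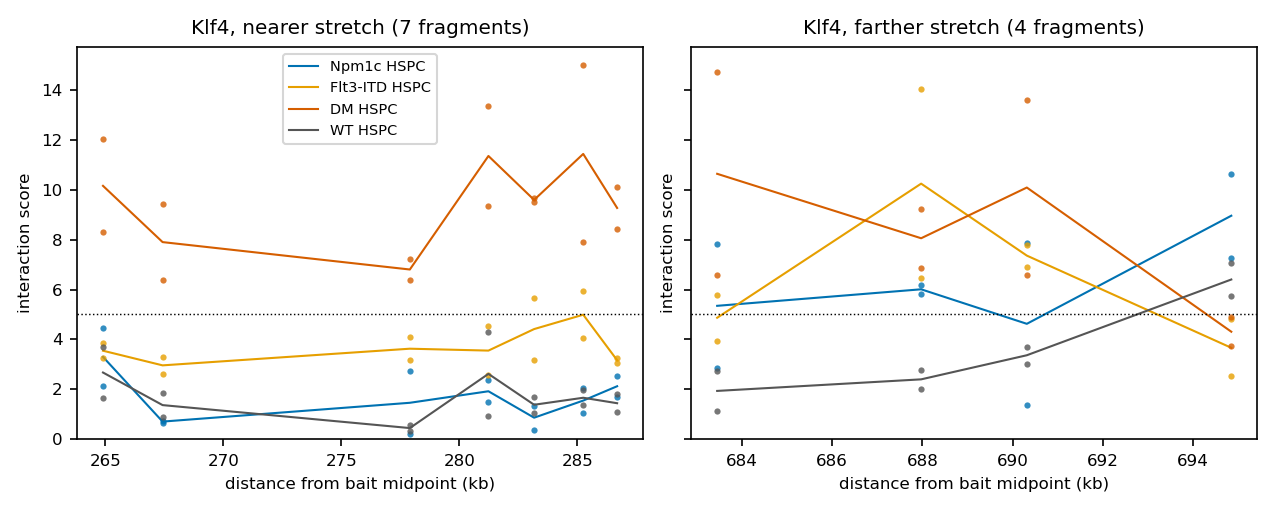
Interaction score (vertical axis) of the Klf4 fragment with each partner against the distance between fragment midpoints in kb (horizontal axis), with points for single replicates, lines for group means and a dotted line at 5. In the nearer stretch every DM point lies between 6.37 and 15.0, above the other 3 groups, an order to which the selection of pairs through DM contributes. The groups mix in the farther stretch.

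A test whose pairs were not selected by the scores compared was made on the mean of log2(score + 1) per promoter. It ran over pairs that HSPC groups outside the comparison had brought in. For a mutant against WT these groups are the other mutants, so pairs high in mutants can be over-represented. For Klf4 in Flt3-ITD against WT HSPCs the test used all 11 pairs, 10 of which had reached 5 in DM HSPCs. The mean was 2.43 ± 0.16 in Flt3-ITD and 1.58 ± 0.07 in WT HSPCs (SD, n = 2 each). The difference of 0.85 (SE 0.19) did not pass after adjustment (adjusted p = 0.092, limma), and it was 0.60 above the median of all promoters. With quantile normalization it was 0.43 (adjusted p = 0.500, limma), 0.47 above the median. Without WT replicate 1 the difference was 0.89. For DM against WT HSPCs only 3 Klf4 pairs remained, 2.99 ± 0.06 in DM and 2.25 ± 0.07 in WT HSPCs, and the difference of 0.73 (SE 0.29) did not pass (adjusted p = 0.224, limma). The nearer stretch does not enter this value, because no group other than DM had reached 5 there.

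Cebpa, the founding factor of granulocyte and monocyte commitment, had 6 pairs in the HSPC list, and all of them reached 5 in both DM replicates. They formed 1 stretch at chr7:35026907-35064773, 57.5 to 84.7 kb from the bait (chr7:35113445-35121370) on its upstream side, over Pepd, a dipeptidase gene, and Cebpg, which encodes a C/EBP partner without an activation domain. Averaged over the 6 fragments, the score was 1.93 and 3.10 in the Npm1c replicates, 3.39 and 4.40 in the Flt3-ITD replicates and 6.71 and 6.13 in the DM replicates, against 2.67 and 1.71 in the WT replicates. Both DM libraries lay above both WT libraries at 6 of 6 pairs, beside 32.6% of all listed pairs, and above all 6 other libraries at 5 of them, beside 13.2%. Of these 6 pairs 5 had entered the list through DM HSPCs alone, so high DM scores were fixed by the selection and nothing is read from these counts. None of the 6 passed in DM against WT HSPCs (lowest adjusted p = 0.0614, limma), and all 6 had an unadjusted p under 0.05, beside 19.5% of all pairs.

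The Cebpa fragment met the fragment that holds the Cebpg promoter (chr7:35055123-35064773) with a score of 1.55 and 2.37 in Npm1c, 2.25 and 3.35 in Flt3-ITD and 7.05 and 7.39 in DM HSPCs, against 2.71 and 2.12 in WT HSPCs. The same contact seen from the Cebpg bait scored 2.97 and 2.76 in Npm1c, 3.29 and 3.56 in Flt3-ITD and 6.61 and 8.22 in DM HSPCs, against 2.28 and 2.08 in WT HSPCs. From both sides the DM libraries stood above the other 6, and seen from Cebpg the difference between DM and WT HSPCs was 1.40 (SE 0.29, adjusted p = 0.081, limma). Both rows had entered the list through DM HSPCs alone. High DM scores were thus fixed by the selection, and neither the order nor the test adds to the scores themselves. The 2 rows can share ligation products, so they are not independent measurements. On the other side of Cebpa, downstream, no pair was listed in HSPCs. Neutrophils had 1 pair there, at chr7:35179405-35182517 and 63.6 kb away, with scores of 5.23 and 5.40. In Flt3-ITD against WT HSPCs the Cebpa mean was 2.22 ± 0.25 and 1.62 ± 0.28 (SD, n = 2 each), a difference of 0.60 (SE 0.25) that did not pass (adjusted p = 0.232, limma).

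Cebpb, a C/EBP factor of stress granulopoiesis and macrophage activation, contacted only fragments downstream of it. Its bait (chr2:167681776-167692188) had 11 pairs over 137 to 245 kb, 9 of them in the HSPC list. The number at 5 or more in both replicates was 4 in Npm1c HSPCs, 8 in Flt3-ITD HSPCs, 4 in DM HSPCs and 5 in neutrophils, against 2 in WT HSPCs. The strongest partner (chr2:167893735-167897216, 208 kb away, with no annotated gene) scored 11.3 and 12.7 in Npm1c, 18.5 and 17.9 in Flt3-ITD, 11.4 and 11.9 in DM HSPCs and 7.93 and 14.6 in neutrophils, against 9.50 and 4.12 in WT HSPCs. All 6 mutant HSPC libraries lay above both WT HSPC libraries at this fragment, and the Flt3-ITD libraries were the highest of all. Each mutant and neutrophils had brought this pair in, and WT HSPCs had not. A fragment at chr2:167879036-167883721 scored 6.16 and 8.12 in Npm1c, 14.3 and 6.67 in Flt3-ITD, 2.87 and 9.51 in DM HSPCs and 7.71 and 7.59 in neutrophils, against 2.70 and 2.33 in WT HSPCs. Every other library lay above both WT libraries there, although DM replicate 1 did so narrowly. Npm1c and Flt3-ITD HSPCs and neutrophils had brought this pair in and WT HSPCs had not. The selection thus favours the orders at both fragments, and nothing is read from them.

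Across the 5 Cebpb pairs brought in by other groups, the mean was 3.34 ± 0.06 in Flt3-ITD and 2.66 ± 0.08 in WT HSPCs (SD, n = 2 each). The difference of 0.69 (SE 0.23) did not pass (adjusted p = 0.173, limma). In DM HSPCs the Cebpb mean over all 9 pairs of the HSPC list was 2.65 ± 0.09, in Flt3-ITD HSPCs 3.06 ± 0.02, in Npm1c HSPCs 2.67 ± 0.47 and in WT HSPCs 2.25 ± 0.34. The departure of DM from the sum of the single mutants (the DM and WT means less those of Npm1c and Flt3-ITD HSPCs) was -0.83 (SE 0.34) and did not pass (adjusted p = 0.167, limma). It was -1.16 without Npm1c replicate 1. The departure ran over all 9 pairs, 3 of which had entered the list through Flt3-ITD HSPCs alone. It therefore keeps the selection, which favours a negative value here, and nothing is read from its sign. The farthest partner fragment (chr2:167923909-167939588, 245 kb away) holds an end of Ptpn1, a tyrosine phosphatase gene. It scored 2.88 and 5.42 in Npm1c, 6.19 and 5.51 in Flt3-ITD and 8.15 and 6.04 in DM HSPCs, against 5.84 and 9.23 in WT HSPCs, and these groups overlapped.

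**Figure D3:**
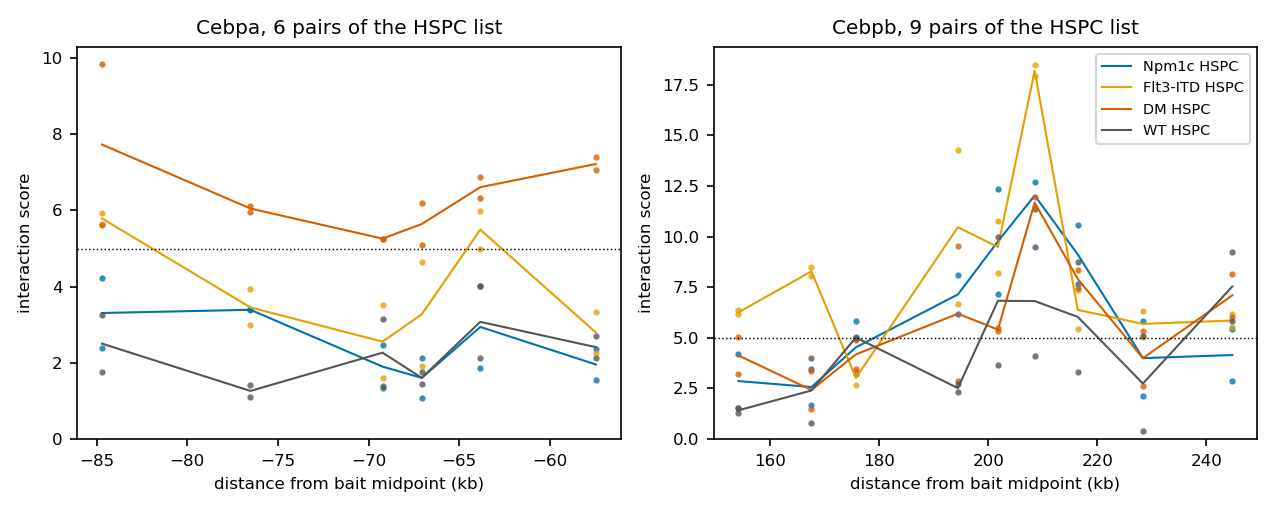
Interaction score (vertical axis) against the distance from the bait midpoint in kb (horizontal axis) for the HSPC pairs of Cebpa (left) and Cebpb (right), with points for single replicates, lines for group means and a dotted line at 5. The 6 Cebpa pairs score 5.08 to 9.85 in DM HSPCs, and the Cebpb profile peaks 208 kb away in Flt3-ITD HSPCs, where both replicates are near 18.

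Cebpe, the late granulocyte C/EBP factor, differed less between groups. Its bait (chr14:54711076-54714562) had 7 pairs 65.1 to 148 kb away over Slc7a8, an amino acid transporter gene, Rnf212b and Homez. The number at 5 or more in both replicates was 3 in Npm1c HSPCs, 1 in Flt3-ITD HSPCs, 6 in DM HSPCs and 2 in neutrophils, against 1 in WT HSPCs. The strongest HSPC pair (chr14:54783389-54784616) scored 7.01 and 7.85 in Npm1c, 6.96 and 6.80 in Flt3-ITD and 8.28 and 9.37 in DM HSPCs, against 6.58 and 4.18 in WT HSPCs. DM values were the highest there, but 1 WT library came close to the other mutants. Over the 3 pairs brought in by other groups the mean was 2.95 ± 0.12 in DM and 2.51 ± 0.55 in WT HSPCs (SD, n = 2 each). The 2 WT replicates thus differed by more than the 0.44 between the groups (SE 0.34, adjusted p = 0.538, limma).

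The Cebpe fragment was also the other end of 4 pairs from 4 baits, 3 of them in the HSPC list, from the baits of Ajuba, of Acin1 and of Slc7a8. With the Ajuba bait it scored 0 and 5.53 in Npm1c, 10.8 and 7.90 in Flt3-ITD, 5.26 and 4.77 in DM HSPCs and 13.7 and 8.96 in neutrophils, against 10.5 and 7.28 in WT HSPCs. All 3 HSPC pairs were listed at 0 in Npm1c replicate 1 and in no other library. Of 9346 other ends with at least 3 pairs, 85 (0.909%) were at 0 in every pair of some library, 27 of them in Npm1c replicate 1.

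Spi1, which encodes PU.1, had 1 pair at the bait that holds its start (chr2:91080805-91084236). The partner (chr2:91181556-91184375, 100 kb away) carries ends of Madd, a signalling adaptor gene, and of Nr1h3, the gene of the nuclear receptor LXRalpha. The score was 2.47 and 3.03 in Npm1c, 3.67 and 4.24 in Flt3-ITD, 6.45 and 9.04 in DM HSPCs and 5.76 and 7.12 in neutrophils, against 2.48 and 3.16 in WT HSPCs. Both DM libraries and both neutrophil libraries lay above all WT and Npm1c libraries. The pair had entered the HSPC list through DM HSPCs alone and the neutrophil list through neutrophils. High scores in both were thus fixed by the selection, and nothing is read from this order. Neither the difference between DM and WT HSPCs (1.18, SE 0.32, adjusted p = 0.121, limma) nor that between neutrophils and WT HSPCs (0.96, adjusted p = 0.164, limma) passed. Seen from the Madd and Nr1h3 bait the same contact scored 2.32 and 2.62 in Npm1c, 4.04 and 3.45 in Flt3-ITD and 5.51 and 5.45 in DM HSPCs, against 2.84 and 3.25 in WT HSPCs (DM minus WT adjusted p = 0.249, limma).

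A second fragment (chr2:91108722-91123643) holds the end of Spi1 together with an end of Mybpc3, a cardiac muscle gene, so its contacts cannot be given to Spi1 alone. It had 2 pairs at 5 or more in WT HSPCs, 1 in Npm1c HSPCs, 1 in neutrophils (with the fragment of Psmc3, a proteasome gene) and 0 in Flt3-ITD and DM HSPCs. With the fragment of Acp2 and Nr1h3 it scored 4.03 and 4.36 in Npm1c, 4.83 and 3.47 in Flt3-ITD and 4.70 and 6.60 in DM HSPCs, against 6.19 and 6.31 in WT HSPCs. As an other end, Spi1 was met from the bait of Agbl2 and Mtch2, 240 kb away. Its start fragment scored there 12.7 and 19.3 in Npm1c, 9.98 and 7.84 in Flt3-ITD and 6.40 and 4.40 in DM HSPCs, against 7.02 and 6.91 in WT HSPCs. Npm1c was highest and DM lowest at this contact, and the difference between Npm1c and WT HSPCs did not pass (adjusted p = 0.289, limma).

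Irf2bp2, a corepressor that binds the interferon regulatory factor IRF2, had the largest set of contacts, 76 pairs from its bait (chr8:126590334-126595379). All but 1 ran upstream of the gene. A broad stretch (chr8:126655866-126887107) held 58 pairs 67.0 to 291 kb away, whose fragments held no end of a protein-coding gene. Its strongest fragments lay over the annotated gene Gm31718. A farther stretch (chr8:126906957-126969179) held 17 pairs 315 to 371 kb away, over Tomm20, a mitochondrial import receptor gene, and Rbm34. In the broad stretch 28 pairs reached 5 in both replicates in Npm1c HSPCs, 41 in Flt3-ITD HSPCs, 43 in DM HSPCs and 49 in neutrophils, against 18 in WT HSPCs. In the farther stretch the counts were 11, 14 and 10 in Npm1c, Flt3-ITD and DM HSPCs and 10 in neutrophils, against 11 in WT HSPCs. Most of the pairs that a mutant or neutrophils had beyond the WT HSPC count lay in the broad stretch. In all 5 groups 13 pairs reached 5.

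Neutrophils scored higher than WT HSPCs at 53 of the 54 Irf2bp2 pairs in both lists, and at 44 of them both neutrophil libraries lay above both WT HSPC libraries. Over the 77 pairs of all the genes in both lists the count was 58 (75.3%), against a background of 41.3% over all such pairs. Every shared pair had to reach 5 in both neutrophil replicates, while only 22 of the 54 Irf2bp2 pairs did so in WT HSPCs. High neutrophil scores were thus fixed by the selection, and nothing is read from the 53 and the 44. The strongest neutrophil contact (chr8:126845347-126846171, 253 kb away) scored 24.5 and 17.5 in neutrophils, against 7.84 and 8.57 in WT HSPCs. The strongest HSPC contact (chr8:126846172-126847226) lay beside it and scored 11.4 and 12.2 in Npm1c, 20.4 and 16.3 in Flt3-ITD, 16.7 and 23.6 in DM HSPCs and 16.2 and 20.1 in neutrophils, against 13.3 and 9.21 in WT HSPCs. A fragment beside Tomm20 (chr8:126927567-126930039) scored 17.3 and 8.98 in Npm1c, 18.2 and 12.4 in Flt3-ITD, 10.5 and 11.8 in DM HSPCs and 18.2 and 19.0 in neutrophils, against 14.1 and 13.4 in WT HSPCs. Neutrophils were above and DM HSPCs below both WT libraries there.

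Irf2bp2 was the only one of the promoters called in the main setting (at least 3 selected pairs, no block, all libraries). The call was between neutrophils and WT HSPCs, where a pair had to reach 5 in each. The scores compared thus also selected the pairs, with the same threshold on both cell types. Over the 22 pairs that reached 5 in neutrophils as well as in WT HSPCs its mean of log2(score + 1) was 3.72 ± 0.07 in neutrophils and 3.16 ± 0.07 in WT HSPCs (SD, n = 2 each), a rise of 0.56 (SE 0.14, adjusted p = 0.0427, limma). Of the 874 promoters tested, 3.43% were called, 19 higher and 11 lower in neutrophils, and both genes that could be tested had an unadjusted p under 0.05, beside 21.7%. The call was lost when any 1 of the 4 libraries was left out (0.51 to 0.61, adjusted p = 0.117 to 0.338, limma) and with quantile normalization (0.37, adjusted p = 0.0648, limma). Quantile normalization moved the median of all promoters to -0.24, against 0.02 without it, so that Irf2bp2 lay 0.62 above the median with it and 0.54 without, while 12 promoters were then called higher and 134 lower. Among HSPCs the Irf2bp2 mean differed from WT by 0.32 in Npm1c (SE 0.24, adjusted p = 0.902), 0.52 in Flt3-ITD (SE 0.17, adjusted p = 0.163) and 0.48 in DM HSPCs (SE 0.16, adjusted p = 0.150, limma), none of which passed.

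**Figure D4:**
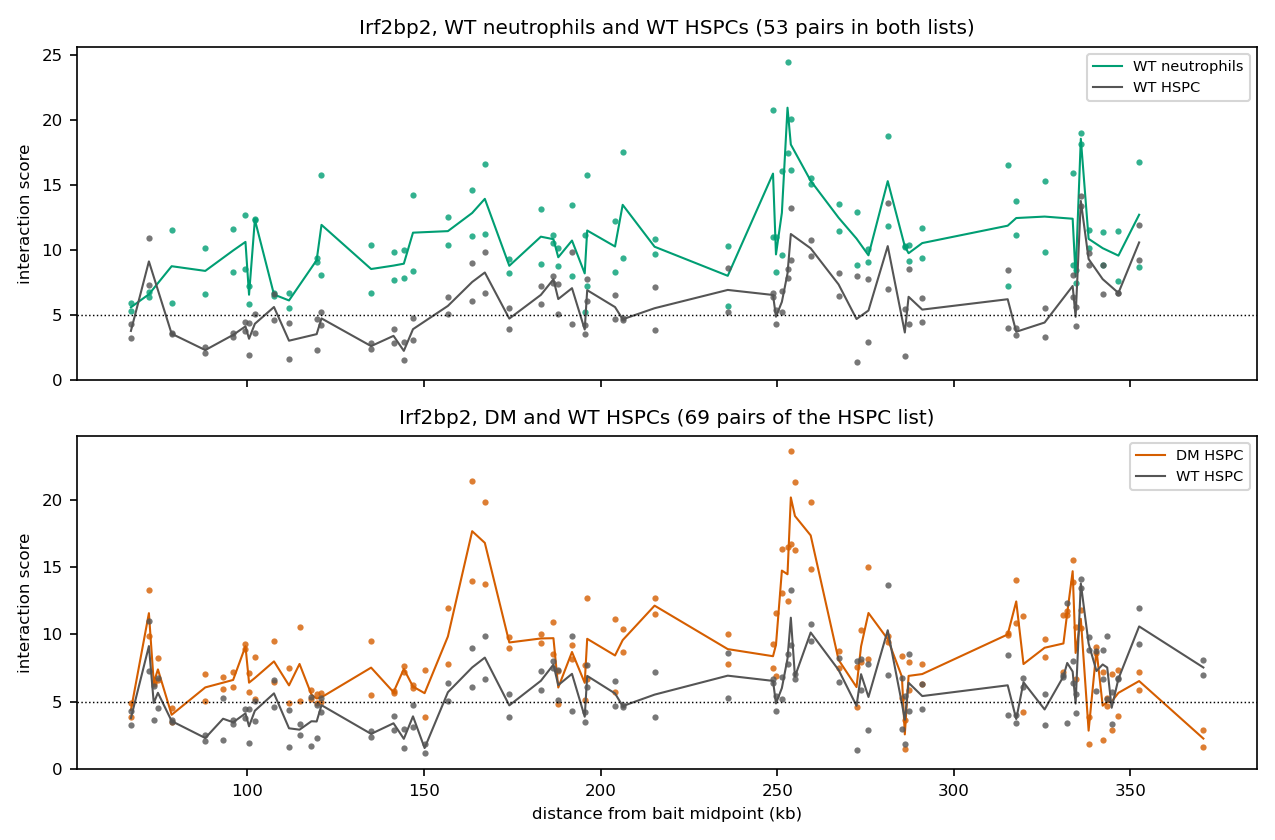
Interaction score (vertical axis) of the Irf2bp2 fragment against the distance from its midpoint in kb (horizontal axis), for neutrophils and WT HSPCs at the 53 upstream pairs in both lists (top) and for DM and WT HSPCs at the 69 upstream pairs of the HSPC list (bottom), with points for replicates and lines for group means. Neutrophils and DM HSPCs lie above WT HSPCs over most of the stretch up to 291 kb, an order to which the selection of pairs contributes.

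Mzf1, a SCAN-domain zinc-finger factor named for its expression in myeloid cells, lies in a cluster of zinc-finger genes, and its bait (chr7:13053440-13057267) had 47 pairs. The number at 5 or more in both replicates was 17 in Npm1c HSPCs, 24 in Flt3-ITD HSPCs, 16 in DM HSPCs and 27 in neutrophils, against 23 in WT HSPCs. Mutants thus did not have more Mzf1 pairs as a rule, and of the 37 pairs in the HSPC list DM HSPCs lay below both WT libraries at 10, beside 19.4% of all pairs, and above both at 5, beside 32.6%. The Zfp128 promoter fragment (chr7:12875295-12882076) scored 12.2 and 10.1 in Npm1c, 8.66 and 6.90 in Flt3-ITD, 9.13 and 7.07 in DM HSPCs and 16.2 and 7.30 in neutrophils, against 8.12 and 14.9 in WT HSPCs. These groups overlapped.

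Among pairs read from the Mzf1 bait, neutrophil contacts lay nearer to the promoter than those of HSPCs. Of the 27 neutrophil pairs, 12 lay within 100 kb, against 1 of the 23 WT HSPC pairs, beside 7229 of 25576 and 7757 of 30826 over all pairs, and the median distance was 127 kb in neutrophils and 164 kb in WT HSPCs, beside 160 and 183 kb over all pairs. This difference in distance was not tested. A stretch 41.3 to 81.3 kb away (chr7:12973197-13015121), over the zinc-finger genes Zfp324, Zfp446 and Zbtb45 and over Slc27a5, held 8 pairs, of which 1 reached 5 in Npm1c HSPCs, 2 in Flt3-ITD HSPCs, 0 in DM HSPCs and 8 in neutrophils, against 1 in WT HSPCs. Its Zbtb45 promoter fragment scored 16.2 and 11.6 in neutrophils and was not in the HSPC list. Seen from the Zbtb45 bait the same contact was in both lists, at 21.5 and 12.4 in neutrophils and 10.5 and 7.33 in WT HSPCs. The Zfp446 bait also met the Mzf1 fragment above 5 in both WT HSPC replicates (9.92 and 9.76), as did the bait of Slc27a5 (9.25 and 9.53). These near contacts were thus not absent from HSPCs, and the nearer neutrophil set describes the Mzf1 bait only. On the other side, a stretch at chr7:13289766-13313776 over Lig1, the gene of DNA ligase I, and Pla2g4c held 5 pairs. Of these, 2 reached 5 in Npm1c, 4 in Flt3-ITD, 3 in DM HSPCs and 0 in neutrophils, against 5 in WT HSPCs. The nearby bait of Lig1 and Zswim9 (chr7:13272372-13279437) met the Mzf1 fragment in both lists. It scored 5.66 and 6.77 in neutrophils and 8.13 and 9.75 in WT HSPCs, so contacts on this side were not absent from neutrophils. Between the cell types the Mzf1 mean was 3.56 ± 0.20 in neutrophils and 3.12 ± 0.13 in WT HSPCs over 10 pairs (SD, n = 2 each), and the difference of 0.45 (SE 0.16) did not pass (adjusted p = 0.124, limma).

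Fragments of the Mzf1 gene were the other end of 28 pairs from 17 baits, and 12 of these pairs were listed in both directions. One contact listed in both directions joined Mzf1 to the Zfp667 promoter 6771 kb away. Seen from the Zfp667 bait it scored 0.141 and 3.72 in Npm1c, 7.66 and 14.7 in Flt3-ITD and 7.70 and 0 in DM HSPCs, against 0.149 and 0.332 in WT HSPCs. Seen from the Mzf1 bait it scored 0 and 2.48 in Npm1c, 6.40 and 11.5 in Flt3-ITD and 6.27 and 0 in DM HSPCs, and both WT HSPC libraries were at 0. The replicates of DM HSPCs disagreed there, and no group other than Flt3-ITD had both replicates above 5.

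Cebpd, a C/EBP factor of the acute phase, could be seen only as the other end of 4 pairs from 3 baits, those of Spidr, a DNA repair gene, of Yars2 and a bait without a gene end. With the Yars2 bait 414 kb away it scored 7.38 and 8.89 in Npm1c, 5.87 and 6.05 in Flt3-ITD and 3.03 and 2.68 in DM HSPCs, against 4.26 and 6.29 in WT HSPCs. Both DM libraries were the lowest of the 8. With the bait chr16:16047776-16053271 it scored 4.71 and 6.13 in Npm1c, 5.89 and 6.08 in Flt3-ITD and 6.20 and 6.37 in DM HSPCs, against 4.09 and 2.62 in WT HSPCs. Both DM libraries were the highest there, beside 13.2% of all listed pairs, and the pair had entered through Flt3-ITD and DM HSPCs. With the Spidr bait, the fragment at chr16:15885072-15889286 scored 9.15 and 5.09 in DM HSPCs, against 19.6 and 5.91 in WT HSPCs. The fragment at chr16:15889287-15891381 scored 6.76 and 7.06 in DM HSPCs, against 3.51 and 4.97 in WT HSPCs. Both Flt3-ITD libraries (11.5 and 7.36) were the highest at the latter. No pair of either list had an Irf8 fragment at either end.

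Over the 144 HSPC pairs, the median difference from WT was 0.15 in Npm1c HSPCs, 0.39 in Flt3-ITD HSPCs and 0.42 in DM HSPCs on the log2(score + 1) scale, beside 0.12, 0.23 and 0.16 over all pairs. In Npm1c and in Flt3-ITD against WT HSPCs none of the 144 pairs passed, where 0.31% and 0.568% of all pairs passed. At an unadjusted p under 0.05 there were 17 and 28, beside 12.5% and 14.2% of all pairs, and in DM against WT HSPCs 37, beside 19.5%. In DM against Npm1c HSPCs 20 pairs had such a p, beside 17.7%. None passed in DM against Flt3-ITD HSPCs (0.458% of all pairs passed, and 14 pairs had an unadjusted p under 0.05, beside 12.0%). None passed for the departure from the sum of the single mutants (0.564% of all pairs passed, and 15 were unadjusted, beside 14.4%). None of the 77 shared pairs passed between neutrophils and WT HSPCs (0.206% of all pairs passed, and 32 were unadjusted, beside 19.9%, limma). Irf2bp2 holds 70 of the 144 pairs and 54 of the 77, so it weighs most in these numbers.

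**Figure D5:**
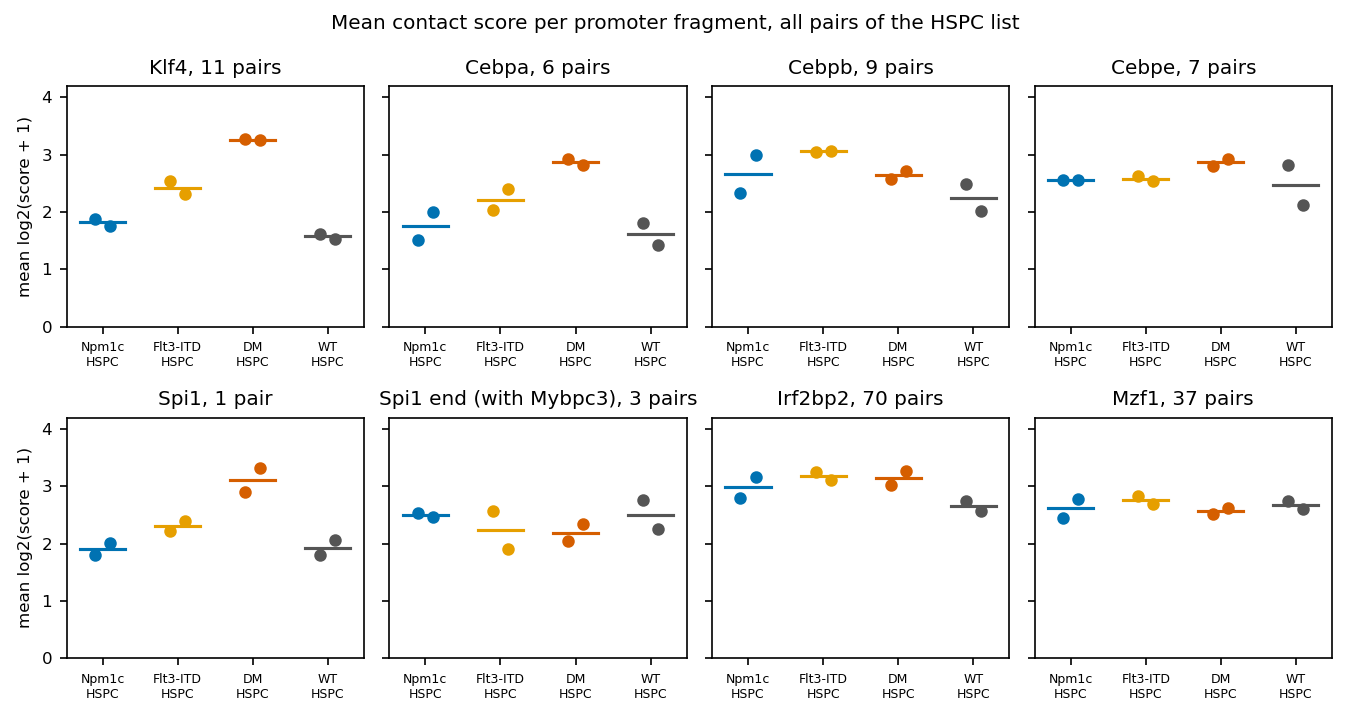
Mean of log2(score + 1) over all pairs of the HSPC list for each promoter fragment (vertical axis), with a point for each replicate and a bar at the group mean. Both DM replicates of Klf4 lie near 3.26 and above the other groups, an order to which the selection of pairs through DM contributes, while the Mzf1 groups overlap.

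For promoter means over pairs brought in by other groups, 6 of the 8 fragments could be tested in Npm1c and in Flt3-ITD against WT HSPCs. In DM against WT HSPCs 5 could be tested, and none passed in these comparisons. In Npm1c HSPCs all 6 differences were positive (0.016 to 0.49, 0.0% of all promoters called, and 0 at an unadjusted p under 0.05, beside 5.78%). In Flt3-ITD HSPCs 5 of 6 were positive (-0.089 to 0.85, 0.0484% of all promoters called, 4 unadjusted beside 18.7%), and in DM HSPCs 4 of 5 (-0.049 to 0.73, 0.188% called, 2 unadjusted beside 17.9%). Over all promoters the median difference was 0.13, 0.24 and 0.10 in these comparisons, and -0.01, -0.03 and -0.08 with quantile normalization. None passed in DM against Npm1c HSPCs (0 of 4, 0.0% called, 0 unadjusted beside 13.2%) or in DM against Flt3-ITD HSPCs (0 of 5, 0.19% called, 0 unadjusted beside 15.6%, limma). The departure from the sum of the single mutants ran over all listed pairs and so keeps the selection. None passed for it (0 of 7, 5.11% called, 2 unadjusted beside 24.1%, limma). When all listed pairs of a bait were used, which keeps the selection, Klf4 and Cebpa were called in DM against WT HSPCs (15.7% of all promoters called) and against Npm1c HSPCs (7.76%). Klf4 was then also called in DM against Flt3-ITD (8.45%) and in Flt3-ITD against WT HSPCs (5.99%), none in Npm1c against WT HSPCs (0.0521%), and Cebpb, Irf2bp2 and Mzf1 in neutrophils against WT HSPCs (19.8%, limma).

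Other genes around these factors were taken from 5 lists, and none of their promoters passed in any of the 7 comparisons (limma). At an unadjusted p under 0.05 there were 2 of 35 genes tested in Npm1c (beside 5.78% of all promoters), 6 of 37 in Flt3-ITD (18.7%) and 7 of 30 in DM against WT HSPCs (17.9%). There were 4 of 30 in DM against Npm1c (13.2%), 5 of 22 in DM against Flt3-ITD (15.6%), 11 of 42 for the departure from the sum (24.1%) and 0 of 6 in neutrophils against WT HSPCs (21.7%). The share of all promoters called in these comparisons was 0.0%, 0.0484%, 0.188%, 0.0%, 0.19%, 5.11% and 3.43%. In DM against WT HSPCs, 2 of 5 C/EBP relatives, 6 of 17 ETS and IRF relatives, 6 of 9 Kruppel-like factors, 9 of 16 cofactors and antagonists and 7 of 25 myeloid target genes could be tested. The medians of these lists were 0.23, 0.42, 0.26, 0.15 and 0.17, beside 0.10 over all promoters. Nfil3, a bZIP factor with 16 listed pairs, differed by -0.18 (SE 0.19, adjusted p = 0.659), and Elf1, an ETS factor with 43 listed pairs, by -0.40 (SE 0.16, adjusted p = 0.227). Klf13, with 59 listed pairs, differed by -0.00037 (SE 0.17, adjusted p = 1.0), and Jun, a partner of PU.1 and C/EBP factors with 26 listed pairs, by 0.97 (SE 0.28, adjusted p = 0.122, limma). Runx1, a core factor of blood stem cells with 6 listed pairs of which 3 entered, differed by 1.95 (SE 0.36, adjusted p = 0.0564, limma), the largest difference in these lists, and is named after its value was seen. The promoter of S100a9, a granulocyte calcium-binding protein gene with 30 listed pairs, differed by 0.21 (SE 0.17, adjusted p = 0.555, limma).

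The partners of the 8 fragments were mostly not promoters. Another bait was the other end of 19 of the 164 pairs (11.6%), 12 of them for Mzf1, against 24.0% of all listed pairs. No pair joined different chromosomes. Of the pairs at 5 or more in neutrophils, 32 of 97 (33.0%) also reached 5 in both WT HSPC replicates, which is 55.2% of the 58 WT HSPC pairs, beside 31.0% and 25.7% over all pairs. Of the 144 HSPC pairs, 77 (53.5%) were in the neutrophil list, against a background of 15.9%, and 54 of the 77 belonged to Irf2bp2. Over the 8 HSPC libraries and 2844 baits with at least 10 pairs, the promoter fragment whose mean most resembled that of Klf4 was a bait without a gene end on chromosome 12 (Pearson r = 0.986), then that of Ffar3 (0.985). For Irf2bp2 these were Mok (0.973) and Rpl37 (0.966), and for Mzf1 Ppox (0.938) and Rad51d (0.918). The libraries of each mean are shared and the pairs were selected through them, so these correlations only describe the profiles.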

How the data were processed

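The data are 10 promoter capture Hi-C libraries. Per the labels' protocols, cells were fixed in 1% formaldehyde for 10 minutes, chromatin was cut with HindIII, and 39684 probes captured 22047 promoters. The build was mm10 per the submitters' processing notes, and the aligner and the interaction caller are not given in the sources used here. The deposited files give, for each pair of fragments, an interaction score per library, which is never negative and whose scaling the authors' files do not state, and, per the file headers, the distance in bp, another quantity. Distances here were recomputed between fragment midpoints. The score at which the authors' lists begin was 5, found by testing it on the files.

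The genes, the lists and the tests were chosen with earlier results of these data known. Every gene with a bait is named. Of its pairs, those named are up to 3 with the highest mean in HSPCs or in neutrophils, pairs called in any comparison and pairs with a listed gene, and those of a stretch are given as a mean. Of the gene lists, genes that passed and those with the most pairs of each list are named. The pairs with Ptpn1 and Zfp667 and those read from other baits were chosen after their values were seen. Protein-coding genes were placed on fragments by their start or end in the RefSeq gene table of GRCm38.p6. A bait without a gene end therefore holds no end of a protein-coding gene. Tests were two-sided on log2(score + 1), using the lmFit and eBayes functions of limma 3.58.1 (R 4.3.3), with p-values adjusted by the Benjamini-Hochberg method and called at 0.05. Pairs were fitted over the 88421 pairs of the HSPC list on autosomes and X with 8 libraries, or over the 14051 shared pairs with the 4 WT libraries. The neutrophil list was selected at 5, which favours higher values in neutrophils over the shared pairs. Promoters were tested on the mean over pairs that an HSPC group outside the comparison had brought in, for baits with at least 3 such pairs, with the prior variance following the number of pairs. Between neutrophils and WT HSPCs the mean ran over pairs that reached 5 in each. The departure from the sum of the single mutants takes in every HSPC group, and its mean ran over all listed pairs. For a mutant against WT the pairs come from the other mutants, so pairs high in mutants can be over-represented. The fits were tested on simulated data. Alternatives were quantile normalization, a pseudocount of 0.1 or 5, a replicate block, each library left out, other minimum numbers of pairs, a constant prior variance and all listed pairs of a bait. Replicate numbers come from the labels. Deviations of replicate 1 correlated between -0.01 and 0.06 over the 6 pairs of HSPC groups, so the numbers do not pair the libraries.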

Additional observations from a re-analysis of the deposited data

How the results depend on the processing

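Which single pairs and promoters pass depends on the setting, and with 2 replicates a group and no read counts the precision cannot be judged further. The 1 pair called in DM against WT HSPCs fell to 0 under every alternative run (quantile normalization, a pseudocount of 0.1 or 5, the replicate block, each library left out, a mean score of at least 5, pairs within 1 Mb, and pairs brought in by other groups). The last of these keeps none of the called pairs by construction. The 2 pairs called in DM against Npm1c HSPCs were 1 with quantile normalization and with a pseudocount of 0.1 or 5, and 0 under the other alternatives, the replicate block and each library left out included. For neutrophils against WT HSPCs, 0 pairs were called, but 4 without WT HSPC replicate 1 (range 0 to 4).

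Promoters called in Flt3-ITD against WT HSPCs were 0, but 1 (Klf4) in 3 other settings. These were at least 5 pairs per promoter (103 of all 4126 promoters called), at least 10 pairs (178 of 1858) and all listed pairs (460 of 7678). Leaving out WT replicate 1 changed the count too. With all listed pairs, 2 were called in DM against WT, 2 in DM against Npm1c and 1 in DM against Flt3-ITD HSPCs, a setting that keeps the selection. For the departure from the sum of the single mutants, the count was not stable to leaving out 1 library. The 1 promoter called in neutrophils fell to 0 with quantile normalization, at least 1 pair per promoter, a constant prior variance and each library left out. It was 2 with the replicate block, where Mzf1 also passed (adjusted p = 0.0436, limma) and 91 of all 874 promoters were called. With at least 10 pairs it was 2, beside 16 of all 112 promoters, and with all listed pairs 3, beside 305 of 1539. The replicate block changed no other call of a promoter. Beside these, calls over all pairs ranged from 0 to 632 in HSPC comparisons across the alternatives.

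Small promoter differences from WT changed sign. With quantile normalization Npm1c minus WT was -0.071 for Cebpa, -0.11 for Cebpe, -0.049 for Klf4 and -0.10 for Mzf1, and Flt3-ITD minus WT was -0.16 for Cebpe. With single libraries left out, Npm1c minus WT ran from -0.12 to 0.38 for Cebpa, from -0.30 to 0.36 for Cebpe and from -0.17 to 0.20 for Mzf1. Flt3-ITD minus WT ran from -0.23 to 0.46 for Cebpe and from -0.18 to 0.00066 for Mzf1, and DM minus WT from -0.14 to 0.043 for Mzf1. For Mzf1, Npm1c minus WT was -0.0068 with a pseudocount of 5 and -0.061 with all listed pairs, and Flt3-ITD minus WT 0.082 with all listed pairs. None of these passed.

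At a threshold of 7 the pairs numbered 31 in Npm1c HSPCs, 42 in Flt3-ITD HSPCs, 43 in DM HSPCs and 63 in neutrophils, against 17 in WT HSPCs, and at 10 they numbered 9, 16, 13 and 21, against 3. Judged on 1 replicate alone the count in Npm1c was 73 to 102, the higher without replicate 1. Counting other ends within 10 kb as shared, 62 neutrophil pairs had a WT HSPC partner, against 32. Causes were not tested.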
